A study of Mus musculus with 12 samples.

Results

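*Cd2*, *Lck* and 8 other genes that define or serve T cells (*Cd3e*, *Cd3g*, *Cd4*, *Cd8a*, *Ptprc*, *Coro1a*, *Cd28* and *Zap70*) were followed through RNA-seq libraries of sorted mouse spermatogonia. The 10 genes were chosen by name, with the higher levels of *Cd2* and *Lck* in cryptorchid libraries already known, and all 10 were found among the 21859 genes of the deposited table. Their differences between cryptorchid and control libraries are therefore given as a description, without a test. The cells were GFRα1-EGFP+/KIT- undifferentiated spermatogonia, sorted as viable cells from GFRa1-EGFP mice operated on at an age of 8 to 10 weeks, in which EGFP reports *Gfra1*. The 5 control libraries came from right testes that stayed in the scrotum and the 7 cryptorchid libraries from left testes fixed to the abdominal wall 10 days before collection. Every mouse thus carried the reporter and had been operated on, and the control testis was the opposite testis of an operated animal. Tubules were digested at a lower temperature for control than for cryptorchid testes, so digestion and testis position cannot be told apart. Each library was made from the RNA of about 200 cells, and the sources used here do not say which libraries shared a mouse, so the spread between libraries may be partly technical.

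CD2 is an adhesion receptor of lymphocytes, among them T cells and natural killer cells. LCK is the Src-family kinase that is held at the tails of CD4 and CD8 and phosphorylates the CD3 chains when the T cell receptor binds its ligand. ZAP-70 then docks on the phosphorylated chains and passes the signal to adaptors such as LAT. CD28 gives the costimulatory signal, CD45 (the product of *Ptprc*) is a phosphatase of all nucleated blood cells that keeps LCK active in T cells, and Coronin-1A (*Coro1a*) binds actin in leukocytes. T cells carry transcripts of the CD3 chains together with those of *Cd2* and *Lck*, and the comparisons below turn on the levels of both.

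*Lck* has 2 annotated starts in the mouse, 15.3 kb apart, and the table counts reads per gene, so it does not tell which start was used. The 250 bases before each start, and the same stretch of *Cd3e*, are shown because *Lck* was read in every library whereas *Cd3e* was not (RefSeq, GRCm38.p6, all on the minus strand, 5′ to 3′). Capitals mark exact matches, on either strand, to TGTGGT, the core bound by RUNX factors, to GGGCGG, the GC box bound by SP factors, or to the TATA box TATAAA.

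Lck upstream start, chr4:129573642-129573891: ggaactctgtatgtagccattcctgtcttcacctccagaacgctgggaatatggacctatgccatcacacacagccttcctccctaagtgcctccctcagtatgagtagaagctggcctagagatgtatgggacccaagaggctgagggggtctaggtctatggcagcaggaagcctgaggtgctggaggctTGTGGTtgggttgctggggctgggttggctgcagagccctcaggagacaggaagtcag
Lck downstream start, chr4:129558373-129558622: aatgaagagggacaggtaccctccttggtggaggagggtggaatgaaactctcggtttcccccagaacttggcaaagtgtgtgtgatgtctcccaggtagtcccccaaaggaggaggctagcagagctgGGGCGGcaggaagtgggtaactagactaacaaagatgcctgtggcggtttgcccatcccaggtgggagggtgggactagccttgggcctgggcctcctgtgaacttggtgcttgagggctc
Cd3e, chr9:45009612-45009861: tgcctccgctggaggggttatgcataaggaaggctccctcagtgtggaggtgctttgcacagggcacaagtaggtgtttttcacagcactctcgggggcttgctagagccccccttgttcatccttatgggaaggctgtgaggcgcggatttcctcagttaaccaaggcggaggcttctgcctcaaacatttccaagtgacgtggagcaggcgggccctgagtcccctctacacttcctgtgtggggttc

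The upstream *Lck* stretch held 1 RUNX core and no GC box, the downstream stretch held 1 GC box and no RUNX core, and the *Cd3e* stretch held none of the 3 motifs. Among all 32851 promoter entries of the same length, 14.0% held the RUNX core, 32.7% the GC box and 12.4% the TATA box. The upstream and downstream *Lck* stretches held 1 and 3 CpG dinucleotides and the *Cd3e* stretch 7, against a median of 6 over all entries. These matches describe letters and not binding. Entries were found for 7 of the 10 genes, and *Cd2*, *Cd4* and *Cd28* had none.

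The libraries held between 3306771 and 24345368 reads on genes. The deposited values are log2 RPM, reads scaled to the size of the library, and each value corresponded to a whole number of reads. A gene without reads stands at the lowest value of its library, which lies higher where a library is shallower, from -5.0 to -1.92 on the log2 scale. Replicates 1 to 3 of both groups held 6800360 to 24345368 reads on genes, against 3306771 to 5481947 in the later replicates, and 74.5% to 94.0% of their implied total lay on the listed genes, against 94.8% to 99.9%. The labels name no batch for this, and values within each set are given below. The label was checked against markers of the sort: *Gfra1* averaged 274 RPM in control and 374 RPM in cryptorchid libraries, the germ cell gene *Ddx4* 473 and 689 RPM, and *Zbtb16*, a transcription factor of undifferentiated spermatogonia, 352 and 393 RPM. *Kit* averaged 24.2 and 32.8 RPM, and all 14 genes of the list for undifferentiated spermatogonia had reads in all 12 libraries. Spermatid transcripts were present as well. *Prm1* and *Prm2* averaged 245 and 738 RPM in control and 82.6 and 121 RPM in cryptorchid libraries. The source of these transcripts in the sorted cells was not tested.

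*Cd2* was higher in every cryptorchid library than in any control library. Its levels were 1.6, 0.904, 2.94, 3.46 and 3.10 RPM in control replicates 1 to 5, from 14 to 39 reads. In the cryptorchid libraries the lowest level was 3.93 RPM, in replicate 3, the median 8.13 RPM and the highest 14.7 RPM, in replicate 4, from 33 to 323 reads. The groups were thus separated by the small gap between 3.46 and 3.93 RPM. On the log2 scale control libraries averaged 1.10 ± 0.82 (SD, n = 5) and cryptorchid libraries 3.13 ± 0.71 (SD, n = 7). The difference in mean level was 2.03 (standard error 0.56), or 4.08-fold. Standard errors of differences are those of the fit over all genes described below. The difference was 2.11 within replicates 1 to 3 and 1.67 within the later replicates. Leaving out each library in turn gave differences between 1.72 and 2.22. In libraries of pooled cells, a larger number of cells that carry a transcript and more of it in each cell cannot be told apart.

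*Lck* was higher on average in cryptorchid libraries, but the groups overlapped. Its levels were 22.7, 17.0, 6.17, 8.0 and 7.75 RPM in control replicates 1 to 5, from 35 to 554 reads. In the cryptorchid libraries they ran from 8.78 RPM in replicate 6, over a median of 31.3 RPM, to 70.2 RPM in replicate 1, from 40 to 1566 reads. Cryptorchid replicates 3 and 6 lay below control replicate 1. Control libraries had a mean log2 level of 3.43 ± 0.81 (SD, n = 5) and cryptorchid libraries one of 4.87 ± 1.06 (SD, n = 7). The difference was 1.43 (standard error 0.51), or 2.70-fold. It was 1.58 within replicates 1 to 3 and 1.55 within the later ones, and 1.22 to 1.72 when each library was left out. The plot of levels by library shows both genes beside the other 8.

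**Figure D1:**
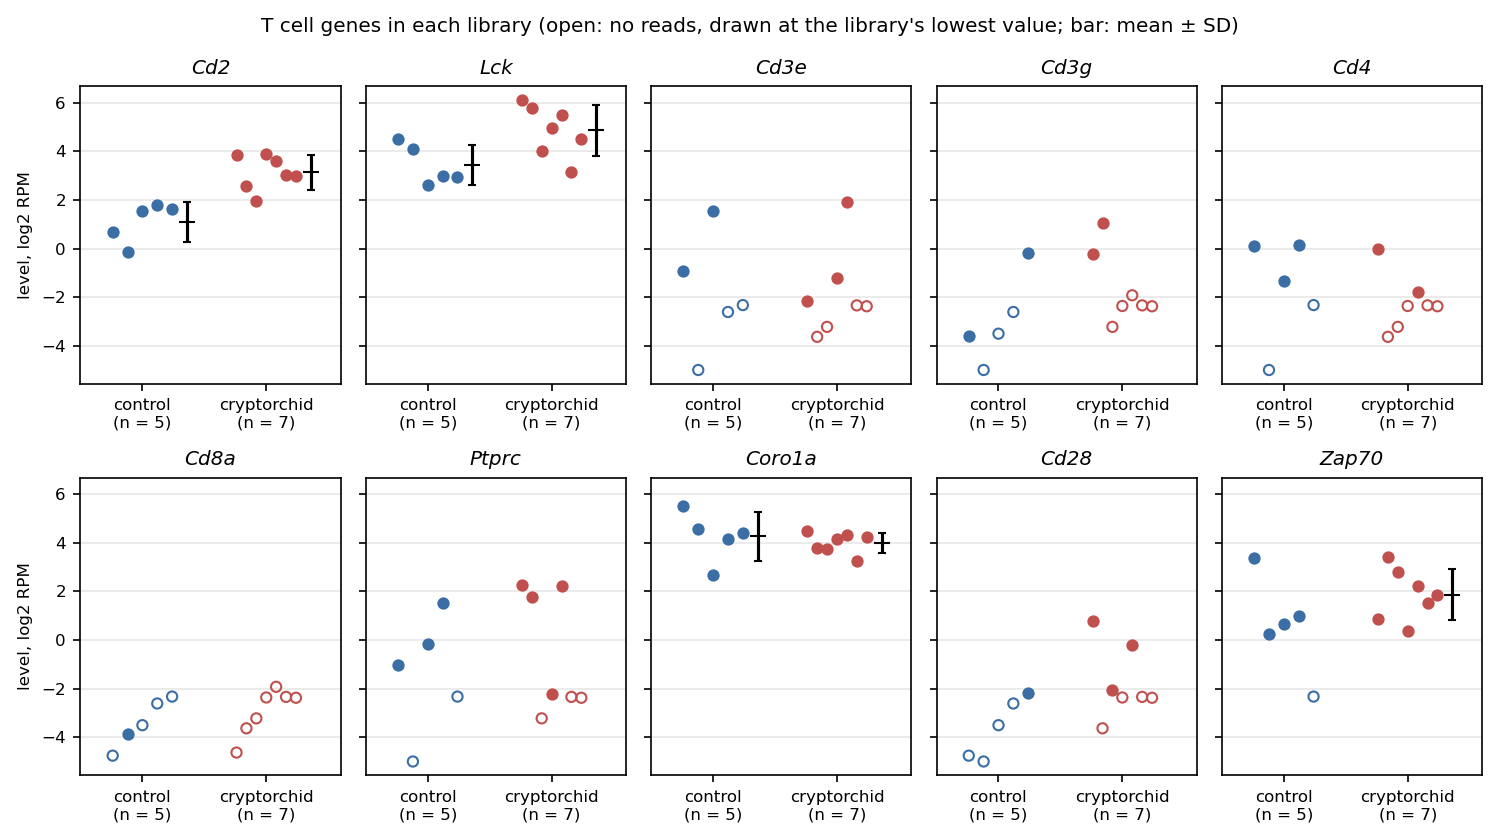
Level (log2 RPM) of the 10 T cell genes in each of 5 control (blue) and 7 cryptorchid (red) libraries, in replicate order from left to right. Open points mark libraries without reads, drawn at the lowest value of that library, and bars give mean ± SD where every library had reads. *Cd2* separated the groups between 3.46 and 3.93 RPM, *Lck* and *Coro1a* overlapped, and *Cd8a* was open in 11 of 12 libraries.

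The same contrast was fitted over the 16932 genes that passed a filter on low levels, with limma. At the study's threshold of 2-fold and an unadjusted *P* of 0.05, 603 genes, 3.56% of those tested, were called higher in cryptorchid libraries and 399, or 2.36%, lower. Of the 10 T cell genes 6 passed the filter, and of these *Cd2* and *Lck* fell among the genes called higher and none among those called lower. After Benjamini-Hochberg adjustment over all genes 2 genes were called, 0.0118% of those tested, and no T cell gene was among them. Separation like that of *Cd2*, with every cryptorchid library above every control library, held for 94 genes, or 0.555% of those tested, and for no other of the 10. As the 10 genes were chosen on this contrast, nothing is read from these counts.

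*Cd3e*, *Cd3g*, *Cd4* and *Cd8a*, which encode chains and coreceptors of the T cell receptor, had reads in 5, 4, 5 and 1 of the 12 libraries. Other CD3 chain genes, which were not among those chosen, were read more widely. *Cd247*, the zeta chain gene, averaged 17.7 RPM in control and 28.5 RPM in cryptorchid libraries, with reads in all 12. *Cd3d* averaged 3.71 and 2.96 RPM, with reads in 10 libraries. *Cd3e*, which encodes the CD3 epsilon chain, had 13 reads in control replicate 1, 30 in control replicate 3 and none in the other 3 control libraries. In cryptorchid libraries it had 5, 2 and 13 reads in replicates 1, 4 and 5 and none in the other 4. The 2 groups thus overlapped, with 43 control reads in all against 20 cryptorchid reads.

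*Cd3g*, the CD3 gamma chain gene, had 2 and 4 reads in control replicates 1 and 5, and 19 and 23 reads in cryptorchid replicates 1 and 2. It had none in the other 8 libraries, including cryptorchid replicate 4, which had the highest *Cd2* level. That library did have 55 reads of *Cd3d*, another CD3 chain gene. *Cd4*, the coreceptor of helper T cells, had 26, 4 and 6 reads in control replicates 1, 3 and 4, and 22 and 1 in cryptorchid replicates 1 and 5. *Cd8a*, the coreceptor of cytotoxic T cells, had 2 reads in control replicate 2 and none elsewhere. The 0 of 59129615 cryptorchid reads allow a *Cd8a* level of up to 0.0507 RPM over the group, by counting error only. No fold is given for these 4 genes, because their values mostly stand at the lowest value of the library.

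*Cd28* and *Ptprc* were read in some libraries of each group. *Cd28*, the costimulatory receptor, had 1 read in control replicate 5 and 38, 2 and 3 reads in cryptorchid replicates 1, 3 and 5, so that 1 library supplied most of its 43 cryptorchid reads. *Ptprc*, the general leukocyte gene, had 12, 9 and 16 reads in control replicates 1, 3 and 4 and none in 2 control libraries. In cryptorchid libraries it had 107, 38, 1 and 16 reads in replicates 1, 2, 4 and 5 and none in replicates 3, 6 and 7. Cryptorchid replicates 3, 6 and 7 therefore had 33, 37 and 37 reads of *Cd2* without a read of *Ptprc*. Their *Lck* levels, 16.1, 8.78 and 22.9 RPM, were the lowest of the cryptorchid group. Replicates 1, 2 and 5, with the most *Ptprc* reads, had the highest *Lck* levels, 70.2, 55.9 and 45.4 RPM. Replicate 4, with 1 read of *Ptprc*, lay between them at 31.3 RPM. The control libraries did not show this order. Control replicates 1, 3 and 4, with *Ptprc* reads, had *Lck* levels of 22.7, 6.17 and 8.0 RPM. Control replicates 2 and 5, without a read of *Ptprc*, had 17.0 and 7.75 RPM. The order in cryptorchid libraries was picked out after the values were seen and was not tested.

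*Coro1a* and *Zap70* were read throughout, or nearly so, and their groups overlapped. *Coro1a* had levels of 45.9, 23.8, 6.47, 17.6 and 21.3 RPM in control replicates 1 to 5, and of 9.66 to 22.2 RPM in cryptorchid libraries, with a median of 17.9 RPM. The cryptorchid range lay within the control range. Control libraries averaged 4.27 ± 1.02 (SD, n = 5) and cryptorchid libraries 4.0 ± 0.42 (SD, n = 7) on the log2 scale, a difference of -0.26 (standard error 0.43). The sign turned to 0.05 without control replicate 1, and the difference was -0.66 without control replicate 3. An exon of *Bola2* on the other strand overlaps *Coro1a*, and whether strand was used in counting is not given in the sources used here, so that reads of both genes may be joined.

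*Zap70*, the kinase that docks on the CD3 chains, had 252, 34, 16, 11 and 0 reads in control replicates 1 to 5. In cryptorchid libraries it had between 6 and 121 reads, at a lowest level of 1.30, a median of 3.64 and a highest of 10.8 RPM. The mean log2 level was 0.59 ± 2.03 (SD, n = 5) and 1.87 ± 1.06 (SD, n = 7), a difference of 1.28 (standard error 0.86). This value rested on 2 control libraries: it was 1.98 without control replicate 1 and 0.55 without control replicate 5, which had no reads. Over all 8 genes other than *Cd2* and *Lck* the median log2 difference was 0.66, beside 0.10 for all genes tested, but in 6 of them fewer than 8 libraries had reads and the differing lowest values of the libraries enter that median. With a common lowest value it was 0.16, with log2(RPM + 1) 0.066, with log2(RPM + 0.1) 0.056, with quantile normalization 0.024 and within the later replicates -0.026, so that no direction is read from it.

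Per kilobase of exon, the order of the mean levels in control libraries was *Coro1a* (8.27 RPM per kb), *Lck* (4.21), *Cd2* (1.38), *Zap70* (1.01), *Cd3e* (0.170), *Cd4* (0.127), *Cd3g* (0.0592), *Ptprc* (0.0468), *Cd28* (0.00724) and *Cd8a* (0.00382). In cryptorchid libraries it was *Lck* (12.2 RPM per kb), *Coro1a* (5.97), *Cd2* (5.53), *Zap70* (1.53), *Cd3e* (0.156), *Cd3g* (0.127), *Ptprc* (0.102), *Cd28* (0.0658) and *Cd4* (0.0453), with *Cd8a* at 0. The 4 most abundant genes were the same in both groups. Neighbours in either order had overlapping ranges over the libraries, except *Lck* and *Cd2* in control libraries.

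The annotated positions are from GENCODE vM21 on GRCm38, the build of the study. *Cd2* lies on the minus strand of chromosome 3 from 101275899 to 101287939, with no exon of another gene over its own, and *Lck* on the minus strand of chromosome 4 from 129548344 to 129573641, where a microRNA gene on the same strand overlaps an exon. *Cd3e* and *Cd3g* are neighbours on chromosome 9, both on the minus strand, from 44998740 to 45009627 and from 44969572 to 44980431, and exons of *Gm48719* on the plus strand overlap those of *Cd3e*.

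The wider T cell pathway was described with 3 lists, which do not include the 10 genes. Of 15 further genes of the receptor complex, coreceptors and T cell surface receptors, 3 had reads in all 12 libraries and 5 had reads in fewer than 6. Of 34 adaptors and kinases that carry the receptor signal, 26 had reads in all 12 libraries and 2 in fewer than 6. Of 18 T cell transcription factors and cytokine or chemokine receptors, 7 had reads in all libraries, 7 in fewer than 6, and *Ccr7* had none in any. The plot of detection against level shows *Cd2*, *Lck* and *Coro1a* among the signalling genes, and *Cd3e*, *Cd3g*, *Cd4* and *Cd28* among the sparsely read receptor genes.

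**Figure D2:**
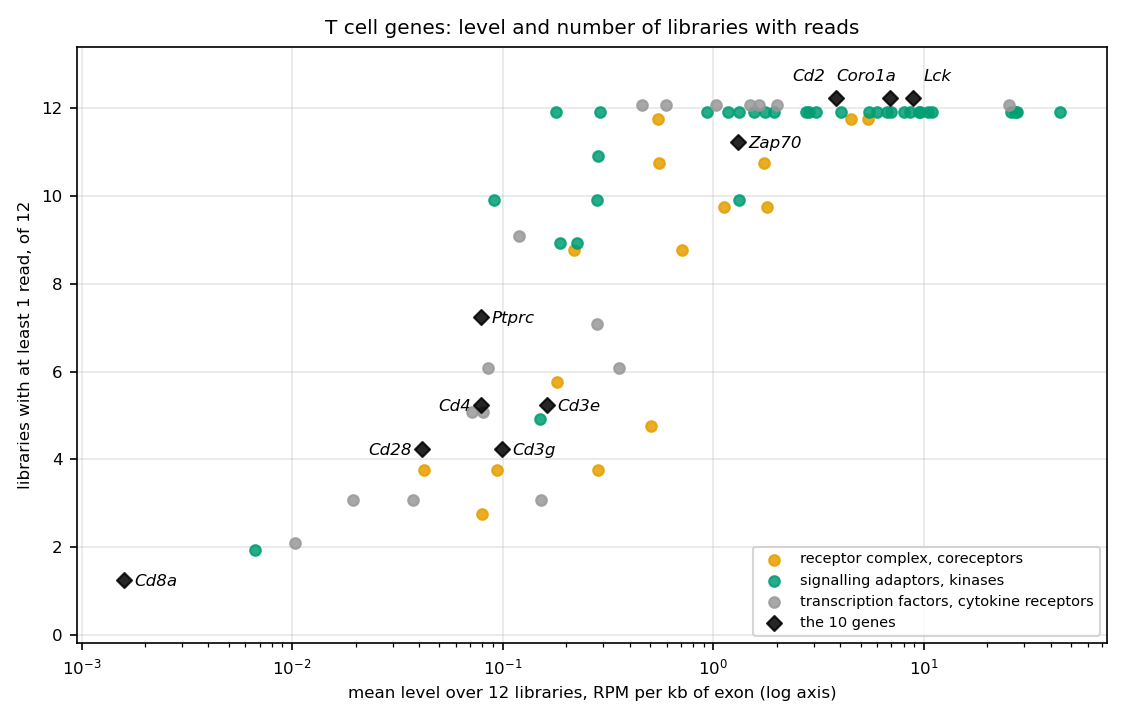
Number of the 12 libraries with at least 1 read against mean level (RPM per kb of exon, log axis) for the 10 genes (black diamonds) and 3 lists of other T cell genes; points of the lists are shifted slightly on the vertical axis, and genes without any read are left out. *Cd2*, *Lck* and *Coro1a* had reads in 12 libraries and *Zap70* in 11, whereas *Cd3e* and *Cd4* had reads in 5, *Cd3g* and *Cd28* in 4 and *Cd8a* in 1.

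The calls in these lists are set beside the shares over all genes tested, 3.56% higher and 2.36% lower. In the receptor list 12 of 15 genes were tested and none was called, with a median log2 difference of 0.41. In the signalling list 33 were tested, 4 (12.1%) were called higher and none lower, with a median of 0.25. In the list of transcription factors and cytokine receptors 13 were tested, none was called higher and 2 (15.4%) were called lower, with a median of 0.50. Over the 58 genes tested in the 3 lists together 6.90% were called higher and 3.45% lower, and the median was 0.27, beside 0.10 for all genes.

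Among the signalling genes called higher were *Rasgrp1*, *Tec* and *Lcp2*, none of them after adjustment. *Rasgrp1*, the exchange factor that activates Ras below the receptor, averaged 3.14 RPM in control and 8.99 RPM in cryptorchid libraries, a log2 difference of 1.81 (standard error 0.58, unadjusted *P* = 0.0062, limma adjusted *P* = 0.34). *Tec*, a non-receptor tyrosine kinase, averaged 11.2 and 27.1 RPM, a log2 difference of 1.55 (limma adjusted *P* = 0.43).

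*Lcp2*, the adaptor SLP-76, was named after its values were seen. It averaged 2.05 and 8.64 RPM, with a log2 difference of 2.62 (limma adjusted *P* = 0.52). Over 25 alternative settings *Rasgrp1* was called in 24, *Tec* in 23 and *Lcp2* in 11. The genes called lower were *Lef1* and *Il2rg*. *Lef1*, a factor of the Wnt pathway and of early T cells, averaged 18.6 and 9.10 RPM (log2 difference -1.24, limma adjusted *P* = 0.44). *Il2rg*, the shared chain of several interleukin receptors, averaged 1.45 and 0.425 RPM (log2 difference -2.38, limma adjusted *P* = 0.48). *Il2rg* had reads in all 5 control libraries and in 1 of the 7 cryptorchid libraries, and was called in 15 of 25 settings, *Lef1* in 21.

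Proteins that bind the 10, or present antigen to their receptors, formed a further list of 14 genes. Of 13 tested, 2 (15.4%, beside 3.56% of all genes) were called higher and none lower, with a median log2 difference of 1.20. Both encode chains of major histocompatibility complex class II, the ligand of CD4. *H2-Eb1* averaged 0.397 RPM in control and 1.99 RPM in cryptorchid libraries (log2 difference 2.02, limma adjusted *P* = 0.45), with reads in 3 of 5 and 7 of 7 libraries. *H2-Aa* had no reads in any control library and averaged 0.850 RPM in cryptorchid libraries, with reads in 4 of 7 (limma adjusted *P* = 0.48), at least 2.45-fold higher than the level that 3 reads per control library would give. *H2-Eb1* was called in 19 of 25 settings and *H2-Aa* in 11.

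Relatives of LCK, ZAP-70 and Coronin-1A in the same families formed a list of 14 genes, 12 of them tested, of which none was called, with a median log2 difference of -0.05. This list holds the Src-family kinases other than *Lck* and *Fyn*, the ZAP-70 relative *Syk* and the other coronins. The plot of differences by list sets these beside *Cd2*, *Lck*, *Coro1a* and *Zap70*.

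**Figure D3:**
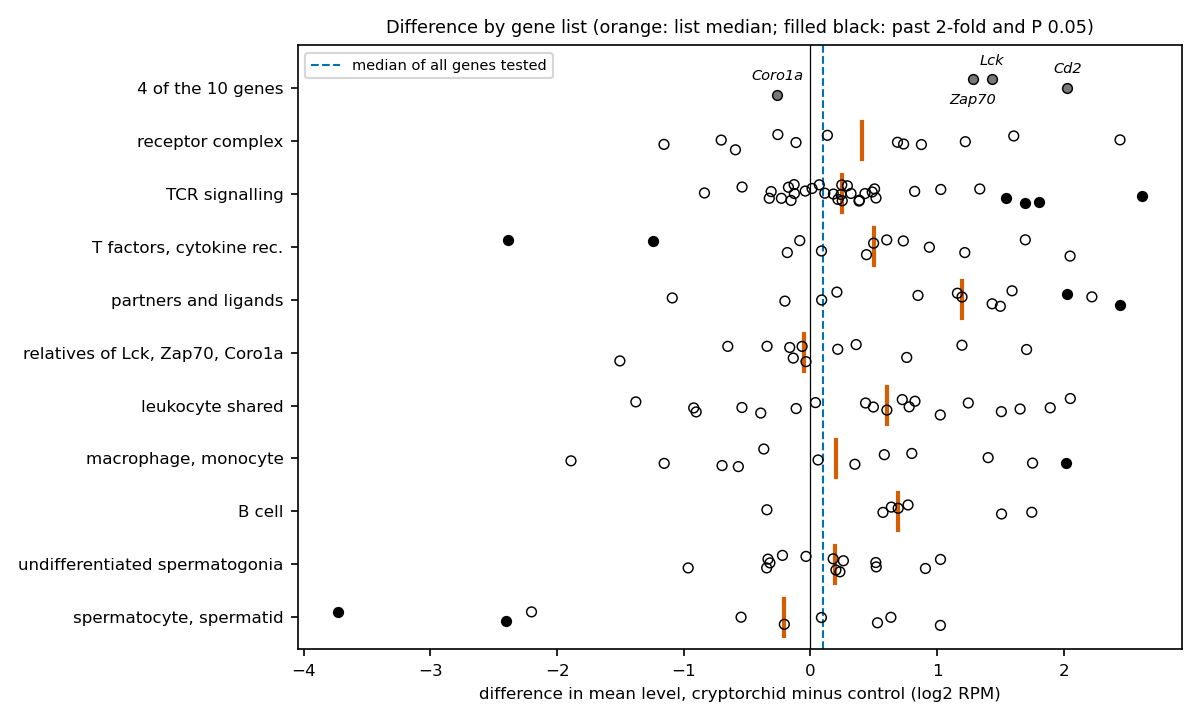
Difference in mean level, cryptorchid minus control (log2 RPM, n = 7 and 5 libraries), for each tested gene of 10 lists and for the 4 of the 10 genes that had reads in at least 11 libraries; orange bars are list medians, the dashed line is the median of all genes tested (0.10), filled black points passed 2-fold and an unadjusted *P* of 0.05, and those 4 are grey because no test is given for them. *Cd2* stood at 2.03, *Lck* at 1.43, *Zap70* at 1.28 and *Coro1a* at -0.26; points of sparsely read genes depend on the lowest values of the libraries.

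Markers of other cells were read beside the *Cd2* and *Lck* result, where 3.56% of all genes tested were called higher and 2.36% lower. Among 21 genes shared by leukocytes none of 19 tested was called, with a median log2 difference of 0.60, and their summed level was 58.6 to 95.5 RPM in control and 64.6 to 109 RPM in cryptorchid libraries. The most abundant were *Cd52*, at 30.5 RPM in control and 17.7 RPM in cryptorchid libraries, and *Dock2*, at 16.2 and 12.7 RPM. Among 18 macrophage and monocyte genes 1 of 12 tested, the mannose receptor gene *Mrc1*, was called higher (2.40 and 9.14 RPM, log2 difference 2.02, limma adjusted *P* = 0.23). Their summed level of 280 to 489 RPM in control and 196 to 616 RPM in cryptorchid libraries came mostly from *Cx3cr1* (309 and 330 RPM) and *Aif1* (66.9 and 52.8 RPM). Of the 18 genes 5 had reads in all 12 libraries, among them *Csf1r*, the receptor of macrophage growth factor (8.23 and 9.93 RPM), and *Cd68* (3.06 and 2.75 RPM). Of the others *Aif1* and *Itgam* had reads in 11 libraries, and *Cd14*, *Ctss* and *Adgre1*, which encodes F4/80, in 8. *Lyz2* had reads in 7, the C1q chain gene *C1qb* in 6, *Tyrobp* in 5 and *Mpeg1* in 4. *C1qa* had reads in 3, *C1qc* and *Cd163* in 2 and *Ccr2* in 1. *Mrc1* was called in 24 of 25 settings.

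Of 10 B cell genes none of 7 tested was called, at summed levels of 19.8 to 27.5 RPM in control and 16.2 to 42.0 RPM in cryptorchid libraries. *Pax5* (7.95 and 7.87 RPM) and *Ebf1* (5.22 and 7.11 RPM) were the most abundant of them on the mean over the 12 libraries, and *Cd79b* had no reads in cryptorchid libraries. Natural killer and cytotoxic genes were close to 0, with 1 of 11 tested, a summed level of at most 2.99 RPM in any library, *Nkg7* and *Klrk1* without a read, and *Fasl* (0.823 and 0.352 RPM) and *Gzma* (0.514 and 0.0680 RPM) the most abundant. Of 13 dendritic, mast cell and granulocyte genes 3 were tested and *Itgax* was called higher, at 0.579 and 2.27 RPM (limma adjusted *P* = 0.50). Their summed level was 2.22 to 20.2 RPM in control and 1.5 to 15.97 RPM in cryptorchid libraries, *Flt3* was the most abundant (4.79 and 3.24 RPM), followed by *Itgax*, and *Fcer1a*, *Mcpt4* and *S100a8* had no reads in any library.

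A few germ cell and somatic markers were called as well, none of them after adjustment. Of the spermatocyte and spermatid genes 22.2% were called lower, beside 2.36% of all genes tested. Of the differentiating genes 16.7%, and of the somatic genes 6.67%, were called higher, beside 3.56% of all genes tested. The spermatid genes *Prm1* and *Prm2*, which encode protamines, averaged 245 and 738 RPM in control and 82.6 and 121 RPM in cryptorchid libraries (log2 differences -2.40 and -3.73, limma adjusted *P* = 0.36 and 0.13), and were called lower in all 25 settings; they were the 2 called of 9 spermatocyte and spermatid genes, whose summed level was 631 to 2492 RPM in control and 226 to 1734 RPM in cryptorchid libraries. *Stra8*, the retinoic acid target that marks entry into differentiation, averaged 65.1 and 145 RPM (log2 difference 1.09, limma adjusted *P* = 0.27), the 1 called of 6 differentiating genes, which summed to 231 to 775 RPM in control and 295 to 821 RPM in cryptorchid libraries. It was called in 18 of 25 settings, and not within replicates 1 to 3, with a term for the 2 sets of replicates, with a block for replicate numbers, or without control replicate 2 or 3 or cryptorchid replicate 4 or 5. *Cdh5*, an endothelial cadherin, averaged 2.53 and 6.86 RPM (log2 difference 2.01, limma adjusted *P* = 0.36), the 1 called of 15 tested Sertoli, Leydig, peritubular and endothelial genes, which summed to 51.6 to 81.7 RPM and 66.1 to 105 RPM. None of the 14 genes of undifferentiated spermatogonia was called; *Dazl* was the most abundant (1137 and 1090 RPM). The part of these cells in the *Cd2* and *Lck* levels was not tested.

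Whether *Cd2* and *Lck* moved with T cell identity genes was asked within the 7 cryptorchid libraries. The choice of the genes rested on the difference between the groups, which includes the levels of these libraries but not how they vary among themselves. In all, 9 relations were computed on log2 RPM, each with an exact two-sided permutation test, and *P* values were adjusted over the 9. Single genes were used only if they had reads in at least 5 of the 7 libraries. This left out *Ptprc*, which had reads in 4, so its relation with *Cd2* and *Lck* was not tested. *Cd2* and *Lck* had Pearson's r of 0.45 with each other (exact *P* = 0.31, adjusted *P* = 0.45) and Spearman's rho of 0.36 (exact *P* = 0.44, adjusted *P* = 0.67). Without cryptorchid replicates 6 and 1, the 2 farthest from the median of *Lck*, r was 0.44. On deviations from the mean of each set of replicates r was 0.75 (permutation within sets, adjusted *P* = 0.39), and over all 12 libraries centred on group means it was -0.021 (permutation, adjusted *P* = 0.95).

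The summed level of *Cd3e*, *Cd3g*, *Cd4*, *Cd8a*, *Cd28* and *Zap70* had r of -0.43 with *Cd2* (exact *P* = 0.33, adjusted *P* = 0.45) and 0.43 with *Lck* (exact *P* = 0.33, adjusted *P* = 0.45). The rho values were -0.54 (exact *P* = 0.24, adjusted *P* = 0.53) and 0.46 (exact *P* = 0.30, adjusted *P* = 0.54). *Zap70* supplied a median of 84.0% of that sum. Without replicates 2 and 4, the farthest on the sum, r became 0.029 for *Cd2* and 0.50 for *Lck*.

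The summed level of the 15 other receptor genes, of which *Cd247*, the CD3 zeta chain gene, supplied a median of 54.5%, had r of 0.42 with *Cd2* (exact *P* = 0.35, adjusted *P* = 0.45) and 0.32 with *Lck* (exact *P* = 0.49, adjusted *P* = 0.55). The rho values were 0 (exact *P* = 1) and 0.25 (exact *P* = 0.59, adjusted *P* = 0.76). Without replicates 3 and 2 both r values were negative, at -0.19 for *Cd2* and -0.16 for *Lck*, so that the positive values rested on those libraries.

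*Coro1a* had r of 0.75 with *Lck* (exact *P* = 0.051, adjusted *P* = 0.23; rho 0.75, exact *P* = 0.066, adjusted *P* = 0.30), which fell to 0.022 without replicates 6 and 3. It was 0.94 without replicate 2 (exact adjusted *P* = 0.025), 0.82 on deviations from the mean of each set (permutation, adjusted *P* = 0.25) and 0.68 over all 12 libraries centred on group means (permutation, adjusted *P* = 0.021), so that the call depended on the libraries used. With *Cd2* its r was 0.61 (exact *P* = 0.15, adjusted *P* = 0.44; rho 0.54, exact *P* = 0.24, adjusted *P* = 0.53), and 0.76 without the same 2 libraries. *Zap70* had r of -0.79 with *Cd2* (exact *P* = 0.038, adjusted *P* = 0.23; rho -0.86, exact *P* = 0.024, adjusted *P* = 0.21), and -0.75 without replicates 2 and 4. Its r with *Lck* was 0.018 (exact *P* = 0.97; rho 0, exact *P* = 1), and -0.35 without those 2. None of the 9 relations passed the adjusted threshold of 0.05.

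Since *Zap70* and *Cd247* dominated both sums, receptor chains and coreceptors other than *Cd247* (*Cd3d*, *Cd3e*, *Cd3g*, *Cd4*, *Cd8a* and *Cd8b1*) were summed as well. This choice was made after the data had been seen. This sum was 6.45, 3.55, 5.98, 4.73 and 8.64 RPM in control replicates 1 to 5 and 0.833 to 12.3 RPM, with a median of 2.69 RPM, in cryptorchid libraries. The control range lay within the cryptorchid range, and *Cd2* and *Lck* were on average higher in the group with the lower mean of the sum (4.39 ± 3.86 RPM, SD, n = 7, against 5.87 ± 1.92 RPM, SD, n = 5). That order held only with *Cd247* left out. *Cd247* alone averaged 17.7 RPM in control and 28.5 RPM in cryptorchid libraries, the opposite order, with overlapping ranges (6.76 to 26.8 and 8.33 to 40.3 RPM). Over the pooled reads of each group, the CD3 chains *Cd3d*, *Cd3e* and *Cd3g* together stood at 3.42 RPM in control (251 reads) and 2.91 RPM in cryptorchid libraries (172 reads). Control replicate 1 held 131 of the 251 reads, and without it the control level was 2.45 RPM, so that the order of the groups turned on that library. Without cryptorchid replicate 1 the cryptorchid level was 3.64 RPM, and the order turned as well. *Cd2* stood at 1.75 RPM in control (128 reads) and 10.3 RPM in cryptorchid libraries (607 reads), of which replicate 1 held 323, and at 7.71 RPM without it.

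Within the cryptorchid libraries this sum had r of 0.76 with *Cd2* (exact *P* = 0.041, adjusted over these 2 relations 0.083; rho 0.82, exact *P* = 0.034, adjusted *P* = 0.068) and 0.061 with *Lck* (exact *P* = 0.90; rho 0.036, exact *P* = 0.96). Without replicates 4 and 3, at the 2 ends of the sum, r for *Cd2* was 0.25, so that the relation rested on those 2 libraries. *Cd3d* supplied 55 of the 57 reads of this sum in replicate 4 and all 7 in replicate 3, and had none in replicates 2 and 5, where the CD3 chain reads, 23 and 13, came from *Cd3g* and *Cd3e* and *Cd2* had 67 and 42 reads.

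**Figure D4:**
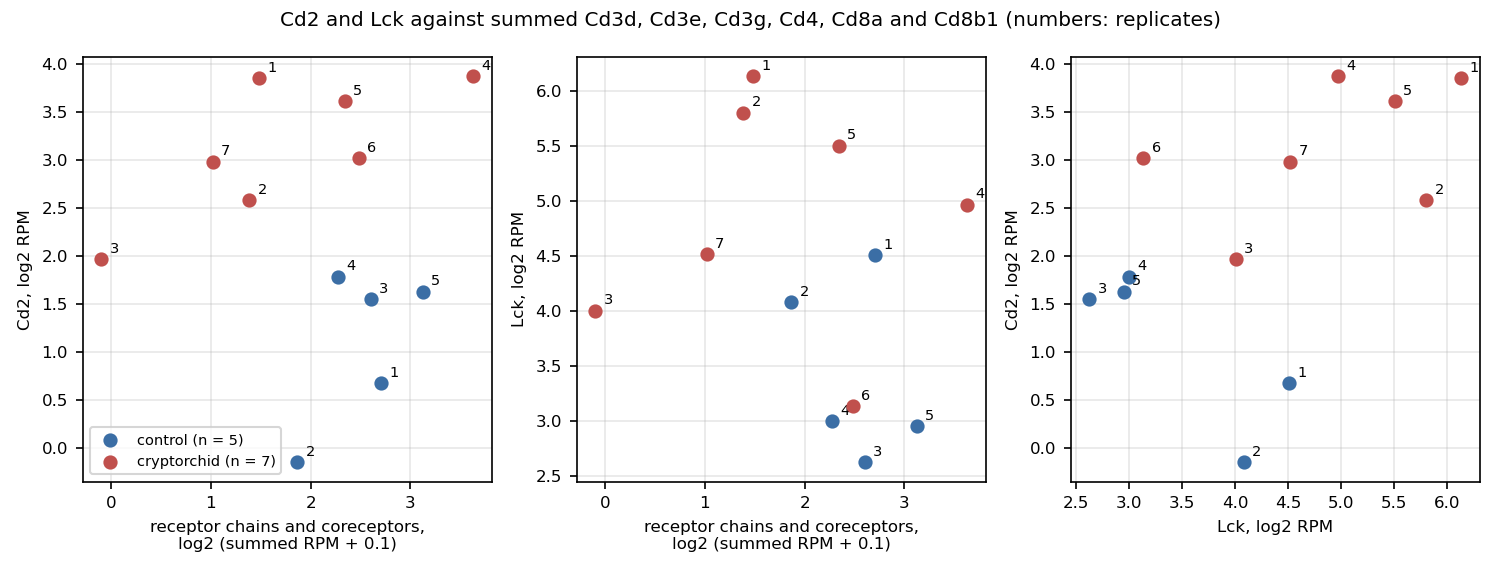
Level of *Cd2* and *Lck* (log2 RPM) against the summed level of receptor chains and coreceptors other than *Cd247* (log2 of summed RPM + 0.1) and against each other, for 5 control (blue) and 7 cryptorchid (red) libraries, numbered by replicate. On the sum the control libraries lie at 3.55 to 8.64 RPM, inside the cryptorchid range of 0.833 to 12.3 RPM; on the *Cd2* axis the groups do not overlap.

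The genes whose levels moved most like those of *Cd2* and *Lck* were sought among 13459 genes with reads in every library, by Pearson's r of deviations from the group mean over the 12 libraries. For *Cd2* they were *Stc2* (r = 0.88), *Adgb* (0.87), 4930522L14Rik (0.86), *Akr1b10* (0.85) and *Rab6b* (0.85), and for *Lck* they were *Tctn3* (0.95), *Cilp2* (0.93), *Tspyl2* (0.93), *Brf2* (0.93) and *Acy1* (0.92). None of these 10 is in the lists of T cell genes. On the same measure *Cd2* and *Lck* had r of -0.02 with each other, *Lck* and *Coro1a* 0.68, *Cd2* and *Cd247* 0.26, and *Lck* and *Cd247* 0.12. Centred within each set of replicates these values were 0.28, 0.76, -0.20 and 0.67, so that those of *Cd2* changed sign. These are descriptions over libraries that share depth and preparation, with the highest of many values picked.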

How the data were processed

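Each library was made by the authors from about 200 sorted cells with a Smart-seq2 protocol without molecular identifiers, trimmed with Trim Galore 0.6.6, checked with FastQC 0.11.8, mapped to mm10 with HISAT2 2.1.0 and counted over protein-coding genes in SeqMonk; the handling of strand and of duplicates is not given in the sources used here. The deposited values are log2 RPM, made by the authors. The study called genes with a model for counts; here limma 3.58.1 with a mean-variance trend (R 4.3.3) was fitted to the deposited log2 values of all genes with a log2 mean RPM above -1. Whole reads (within 0.05 of a read, 100% of values below 1000 reads) were recovered, the lowest value of a library standing for 0.9 reads. Intervals and floors (3 reads) cover counting error only. Permutation tests, sums and plots used Python 3.11.15, scipy 1.17.1 and matplotlib 3.10.9, and the fit was tested on simulated data. No 2 of the 66 library pairs held identical reads.

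The 10 genes, the gene lists and the tests were chosen with earlier results of these data known. Named were the 10 genes, the 12 called genes of other lists with the smallest *P*, the 2 most abundant genes of each leukocyte list and of undifferentiated spermatogonia, *Gfra1*, *Kit*, *Zbtb16* and *Ddx4*, and the 5 genes most like *Cd2* and *Lck*; the others were named after their values were seen. A gene that this rule names is not reported here. Alternatives were other normalizations, pseudocounts and filters, weights, voom on recovered reads, a block for replicate numbers, a term for replicates 1 to 3 against later ones, and each library left out; each set alone and the sum of receptor chains were added after seeing the data.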

Additional observations from a re-analysis of the deposited data

Results flagged for a closer look

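Of 46 groups of libraries tested for a stray library among the named genes with reads throughout, 4 held a library whose gap to its neighbour was large against the range of the group, and chance flags about 1 group in 20. None of the 4 was a group of *Cd2*, *Lck*, *Coro1a* or *Zap70* values. *Cx3cr1* stood at 7.25 log2 RPM in cryptorchid replicate 2, against 8.07 in the nearest library. *Dock2* stood at 2.60 log2 RPM in control replicate 2, against 4.12. *Ebf1* stood at -0.87 log2 RPM in control replicate 4, against 2.07. *Lef1* stood at 0.78 log2 RPM in cryptorchid replicate 7, against 2.65, and without that library *Lef1* was no longer called lower.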

How the results depend on the processing

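The log2 differences of *Cd2*, *Lck*, *Coro1a* and *Zap70* moved by less than 1 SD between libraries under all 21 alternatives, though *Coro1a* changed sign without control replicate 1 (0.05). The median of the 8 other T cell genes, 0.66, fell to between -0.026 (later replicates alone) and 0.16 (common floor) under several of them. These included the 2 pseudocounts, quantile normalization and leaving out control replicate 2 (0.16). The shift was still below the SD of these sparse genes. With each library left out the ranges were 1.72 to 2.22 for *Cd2*, 1.22 to 1.72 for *Lck* and 0.16 to 1.03 for the median of the 8. Over all genes, the 603 higher calls became 385 with a stricter filter and 287 within replicates 1 to 3. The 399 lower calls became 703 with array weights, 635 with a term for the 2 sets of replicates and 705 within the later replicates. The 2 calls after adjustment became 476 with array weights, 46 with the set term, 5 with log2(RPM + 1), 4 with quantile normalization, 4 with median centring and 0 within either set alone. With each library left out they ran from 0 to 9, the higher calls from 501 to 750 and the lower calls from 280 to 572. The cause of these shifts was not tested.

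Libraries of the same number did not all deviate together (r of 0.049 to 0.41 over the 5 numbers; 4 of 5 control libraries correlated best with their own number), so the numbers were not taken to pair the samples. These values do not settle whether libraries of the same number shared a mouse. With a replicate block there were 778 higher calls, 900 lower calls and 949 after adjustment, and of the other T cell genes 5 were called higher and 0 lower; the log2 differences were 2.08 for *Cd2* and 1.85 for *Lck*.

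Among the 3 lists of other T cell genes the 4 higher calls became 7 without a filter and 2 within replicates 1 to 3, and ran from 2 to 5 with each library left out. They were 2 without control replicate 2 and 2 without cryptorchid replicate 1. The 2 lower calls became 1 with the common floor, log2(RPM + 1), the stricter filter or the later replicates alone, 0 within replicates 1 to 3, and 1 to 2 with each library left out.

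Of the relations within cryptorchid libraries, r of *Cd2* with *Lck* changed sign to -0.021 and with *Coro1a* to -0.10 over all 12 libraries centred on group means. On deviations from the means of each set *Cd2* with *Lck* was 0.75 and *Lck* with the other receptor genes 0.62, neither past the threshold. The r of *Cd2* with the sum of T cell genes was 0.76 when only receptor chains and coreceptors other than *Cd247* were summed. That with the other receptor genes ran from -0.45 (without cryptorchid replicate 3) to 0.66 with each library left out. The r of *Lck* with *Zap70*, near 0, was -0.19 within sets and ran from -0.34 to 0.30. *Lck* with *Coro1a* passed the adjusted threshold without cryptorchid replicate 2 (r = 0.94, exact permutation, adjusted *P* = 0.025) and over all 12 libraries centred on group means (r = 0.68, permutation, adjusted *P* = 0.021).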
